A study of Bos taurus with 9 samples.

Results

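Replication-dependent histone genes are the multi-copy, intronless genes that supply the core and linker histones for newly made chromatin. Their transcripts accumulate in S phase, end in a conserved stem-loop in place of a poly(A) tail and are bound there by SLBP, so that RNA prepared without poly(A) selection, as here by depletion of ribosomal RNA, can contain them. In cattle the largest cluster is on chromosome 23 and a smaller one is on chromosome 3. LncRNAs assembled over such genes lie among nearly identical gene copies, and reads of the host gene itself cannot be told apart from reads of a sense transcript that overlaps it.

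The lncRNAs described here are 6 of the 2257 deposited lncRNA transcripts, chosen as a set of lncRNAs at histone genes. ENSBTAG00000052382-AS1 is in the set although neither its name nor its host carries a histone symbol. The choice was made with the values of the 9 libraries in view, so the levels and fold changes of these 6 are a description, no p-value is attached to any of them, and the counts of calls among them support nothing beyond the values themselves. MAC-T is a bovine line of immortalized mammary epithelial cells. Untreated MAC-T cells were the 0 h group, and cells exposed to 50 ng/μL LPS, a glycolipid of the Gram-negative cell envelope that is sensed through TLR4, were collected at 6 and 12 hpi, with 3 libraries in a group. All were kept in DMEM/F12 with 10% fetal bovine serum. Because the groups were grown on separate plates, the plate and the duration of LPS cannot be told apart, and an untreated plate kept for 6 or 12 h is not among the groups. The labels number the replicates and do not say which wells or cultures they came from. By the study's methods, the cells of each group came from 1 plate with 6 wells. On that description, every SD and SE below, and every p-value and call built on them, rests on the spread within a plate and not between independent cultures. The methods also state at least 3 repeats of all experiments, without naming the sequenced libraries. In the lncRNAs at histone genes other than H4C11-OT1 and H4C11-OT2, 0 h replicates 1 and 2 stand apart from the other 7 libraries. The comparisons of these lncRNAs with 0 h are given with and without 0 h replicates 1 and 2. In the sequencing summary of the study, the same libraries also have the lowest base quality and the lowest share of mapped reads, and the part of this in the results was not tested. The deposited values hold lncRNAs and circRNAs, so the epithelial identity of the cells could be read only through lncRNAs at marker genes. By host symbol, RUNX1, expressed in mammary luminal cells among others, was the 1 host of the 25 mammary markers listed that had any (5 lncRNAs). None of the 22 fibroblast and leukocyte markers had one. The antisense and intergenic lncRNAs named here carry no host symbol and could not be counted for a marker.

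By the deposited coordinates (ARS-UCD1.2), H2AC19-OT1 (TCONS_00112517) lies on chromosome 3 from 20725437 to 20748264 and overlaps in sense H2AC19, a histone H2A gene. The other 5 lie within 893 kb of chromosome 23. H4C11-OT1 (TCONS_00087701) and H4C11-OT2 (TCONS_00087700) have the same outer limits, 30948846 to 30977246, and H4C11-OT3 (TCONS_00087708) spans 30965738 to 31002944, sharing 11.5 kb with both. All 3 are assigned to H4C11, a histone H4 gene. H2AC11-OT1 (TCONS_00087738, 31354601 to 31363785) overlaps a further H2A gene, H2AC11, 352 kb beyond H4C11-OT3. ENSBTAG00000052382-AS1 (TCONS_00087791, 31829251 to 31841451) follows after a gap of 466 kb and is named as antisense to ENSBTAG00000052382. That gene has no symbol in the sources used here, and whether it is a histone gene or lies next to one was not checked. ENSBTAG00000052382-AS1 is counted below among the lncRNAs at histone genes only because the set includes it.

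The spans of these lncRNAs, 9.19 to 37.2 kb, are those of spliced transcripts from first to last exon. The exons themselves are not given in the deposited values, and which bases of a histone gene fall into them is not known. In the RefSeq annotation of ARS-UCD2.0, used only for names and gene order, 52 protein-coding genes with symbols of clustered histones lie on chromosome 23 and 11 on chromosome 3. The coding genes next to H4C11 there are H4C12 and H2BC14, those next to H2AC11 are H2BC12 and H2BC11, and H2BC20 follows H2AC19. Beyond H2BC11 come ZNF322, OR2M17, OR2M14 and OR2M15, which are not histone genes. The neighbours of ENSBTAG00000052382 were not listed. Reads of copies this similar can be assigned to one place or another by the aligner, and the level of any single member is uncertain for that reason.

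LncRNAs at histone genes were among the most abundant lncRNAs of MAC-T cells. FPKM, the number of fragments scaled to transcript length and library size, is a level per length and can be set side by side between transcripts. Ranked by mean FPKM over the 9 libraries among all 2257 lncRNAs, ENSBTAG00000052382-AS1 was the 3rd (198 FPKM), H2AC11-OT1 the 5th (118), H4C11-OT3 the 6th (108), H2AC19-OT1 the 11th (50.0), H4C11-OT1 the 13th (46.3) and H4C11-OT2 the 17th (41.7). The order of the most abundant held inside every library: ENSBTAG00000052382-AS1 was above H2AC11-OT1 in 9 of 9 libraries, H2AC11-OT1 above H4C11-OT3 in 9 of 9, and H4C11-OT3 above H2AC19-OT1 in 9 of 9. H2AC11-OT1 and H4C11-OT3 were close, with a ratio of H4C11-OT3 to H2AC11-OT1 between 0.756 and 0.992, and their ranges overlapped at each time point. All 6 passed the filter of FPKM above 0.5 in at least 3 of 9 libraries, as did 1948 lncRNAs in all, and each had more than 0.5 FPKM in at least 2 of the 3 libraries of every time point.

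In untreated cells, ENSBTAG00000052382-AS1 had 89.5, 73.8 and 200 FPKM in replicates 1, 2 and 3. At 6 hpi it had 173, 209 and 225 FPKM, and at 12 hpi 312, 226 and 270 FPKM. The means were 121 ± 69.0, 202 ± 26.7 and 269 ± 43.0 FPKM (SD, n = 3). All libraries of 12 hpi were above all of 0 h, whereas 0 h replicate 3 lay inside the range of 6 hpi and 0 h replicates 1 and 2 were far below every other library.

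H2AC11-OT1, at a gene for a core histone of the H2A family, had 55.2, 47.2 and 107 FPKM at 0 h, 104, 139 and 130 FPKM at 6 hpi, and 196, 129 and 154 FPKM at 12 hpi. Its means were 69.7 ± 32.3, 124 ± 17.9 and 160 ± 33.9 FPKM (SD, n = 3). Here too 0 h replicate 3 stood between the other untreated libraries and the bulk of the treated ones, at 2.08 times the mean of 0 h replicates 1 and 2. The groups of 0 h and 6 hpi overlapped by 1 library each, and those of 0 h and 12 hpi did not overlap.

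H4C11-OT3, at a gene for histone H4, had 41.8, 38.9 and 106 FPKM at 0 h, 92.4, 126 and 128 FPKM at 6 hpi, and 166, 127 and 145 FPKM at 12 hpi. Its means were 62.2 ± 37.8, 115 ± 20.0 and 146 ± 19.8 FPKM (SD, n = 3). H2AC19-OT1, the member on the other chromosome, had 26.4, 27.3 and 45.8 FPKM at 0 h, 42.9, 50.2 and 51.6 FPKM at 6 hpi, and 87.4, 53.8 and 64.4 FPKM at 12 hpi, with means of 33.1 ± 10.96, 48.2 ± 4.68 and 68.5 ± 17.2 FPKM (SD, n = 3). Both had the pattern of the 2 members above: 12 hpi lay wholly above 0 h, and 6 hpi overlapped it through 0 h replicate 3. In a bulk sample, fewer cells that contain a transcript and less of it per cell cannot be told apart.

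**Figure D1:**
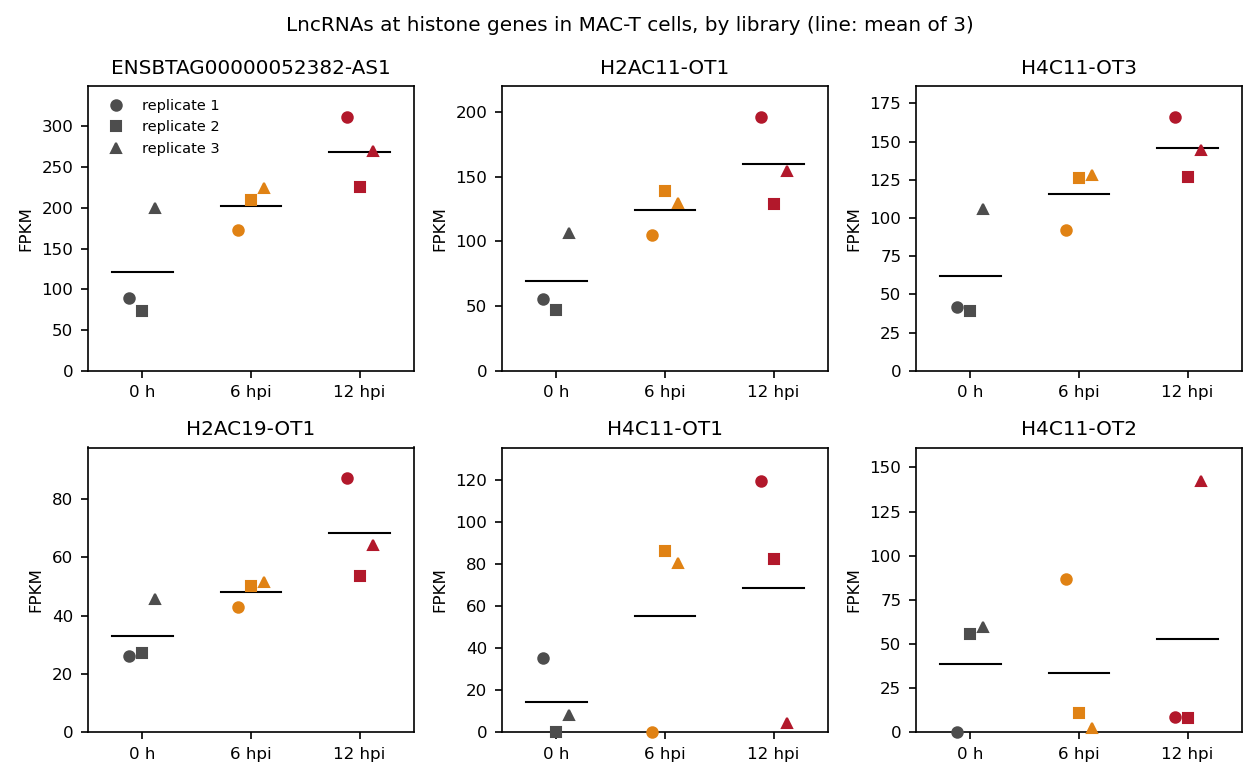
FPKM of each lncRNA at histone genes in the 9 libraries, by time point (0 h untreated, 6 and 12 hpi with LPS); symbols are replicates 1 to 3 and lines are means of 3. For the 4 lncRNAs other than H4C11-OT1 and H4C11-OT2, 0 h replicate 3 lies at the level of 6 hpi, 0 h replicates 1 and 2 are lowest, and every library of 12 hpi lies above every library of 0 h.

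H4C11-OT1 and H4C11-OT2, which share their outer limits, behaved as a pair that trade places between libraries. H4C11-OT1 had 35.4, 0 and 8.45 FPKM at 0 h, 0, 86.0 and 80.5 FPKM at 6 hpi, and 119, 82.4 and 4.26 FPKM at 12 hpi. H4C11-OT2 had 0, 55.6 and 59.9 FPKM at 0 h, 86.7, 11.2 and 2.46 FPKM at 6 hpi, and 8.90, 8.17 and 142 FPKM at 12 hpi. In each library one of them took most of the pair's FPKM, H4C11-OT1 between 88.4% and 100% in 5 libraries and between 0% and 12.4% in the other 4. Both kinds of library occurred at each time point, and 3 libraries list one of them at 0 while its partner is at 35.4, 55.6 or 86.7 FPKM.

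Summed, the pair varied far less. H4C11-OT1 and H4C11-OT2 together had 35.4, 55.6 and 68.3 FPKM at 0 h, 86.7, 97.3 and 83.0 FPKM at 6 hpi, and 128, 90.6 and 146 FPKM at 12 hpi, with means of 53.1 ± 16.6, 89.0 ± 7.40 and 122 ± 28.5 FPKM (SD, n = 3). None of the 3 libraries of 0 h overlapped those of 6 or 12 hpi in this sum, which was formed after the values were seen. Of all tested lncRNAs, 10.4% lay wholly above 0 h at 6 hpi and 14.1% at 12 hpi. H4C11-OT3 held 52.0 ± 9.96% of the FPKM of all 3 H4C11 transcripts at 0 h, 56.2 ± 4.53% at 6 hpi and 54.8 ± 4.53% at 12 hpi (SD, n = 3), shares that differed by less than their spread. The 3 transcripts share a stretch of genome, and how fragments were divided among them is an estimate of the quantification program.

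**Figure D2:**
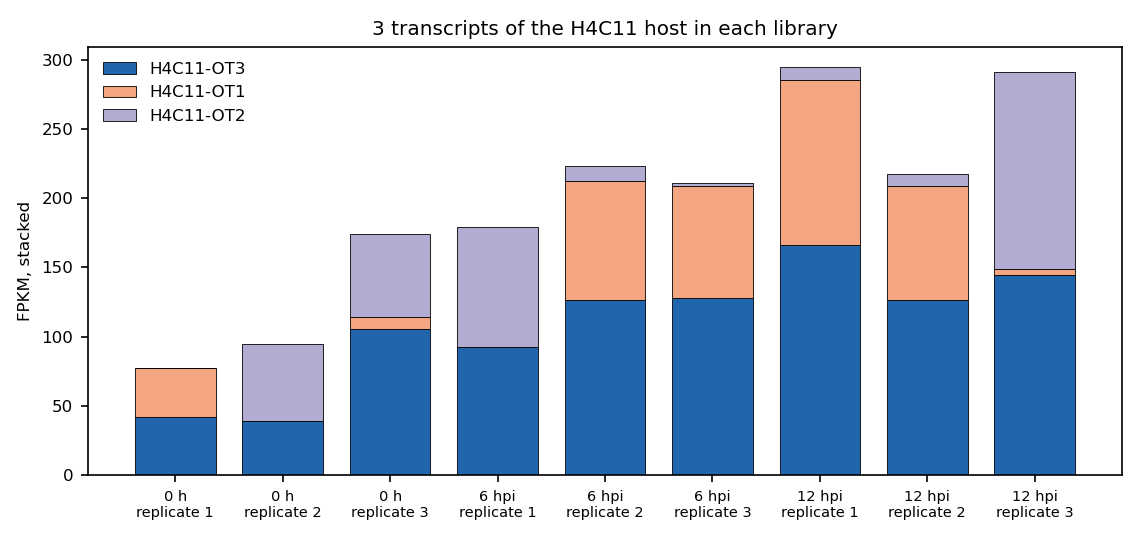
Stacked FPKM of H4C11-OT3, H4C11-OT1 and H4C11-OT2 in each of the 9 libraries. H4C11-OT1 and H4C11-OT2 replace each other from library to library at every time point, while H4C11-OT3 holds between 41.2% and 60.8% of the sum.

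Between 6 hpi and 0 h, the fitted differences of all 6 lncRNAs were positive, as were those of 52.7% of all tested lncRNAs. Of the 6, H4C11-OT3 met the thresholds, which asked for a log2 fold change beyond 1 in size together with p under 0.05 before adjustment. Its log2 fold change was 1.04 (SE 0.35, limma on log2(FPKM + 0.1)). Of all 1948 tested lncRNAs, 6.06% met these thresholds in either direction and 3.75% as higher. H2AC11-OT1 (0.92, SE 0.30), ENSBTAG00000052382-AS1 (0.87, SE 0.33) and H2AC19-OT1 (0.58, SE 0.25) had fold changes below the threshold. H4C11-OT1 (1.5, SE 2.92) and H4C11-OT2 (0.97, SE 2.43) had errors larger than their fold changes. With 1 library left out, their log2 fold changes ran from −0.98 to 4.74 and from −2.09 to 2.53, so neither has a settled direction, and the mean FPKM of H4C11-OT2 was lower at 6 hpi (33.5) than at 0 h (38.5). None of the 6 had its 3 libraries of 6 hpi wholly above those of 0 h, as 10.4% of the tested lncRNAs had. The median log2 fold change was 0.95 for the 6 and 0.05 for all tested lncRNAs. The call of H4C11-OT3 was lost without 0 h replicate 1 (0.83) or 2 (0.78) or 6 hpi replicate 2 (0.97) or 3 (0.96), and with values centred on the library median (0.98), quantile normalized (0.83) or summed per host gene (0.91). Leaving out 0 h replicates 1 and 2 together leaves a single library at 0 h that is assumed to vary like the other groups. The log2 fold changes at 6 hpi were then 0.11 for H4C11-OT3, 0.21 for H2AC11-OT1, 0 for ENSBTAG00000052382-AS1 and 0.07 for H2AC19-OT1. The omitted libraries were the lowest of all in each of these lncRNAs, so leaving them out was bound to lower the fold changes. Without 0 h replicate 3, the log2 fold changes were 1.5 for H4C11-OT3, 1.27 for H2AC11-OT1 and 1.31 for ENSBTAG00000052382-AS1. These 3 then met the thresholds, beside 171 of all tested lncRNAs. In each of them that library was the highest of 0 h, so leaving it out was bound to raise the fold change.

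Between 12 hpi and 0 h, 4 of the 6 met the thresholds, all as higher, against 9.60% of all tested lncRNAs in either direction and 6.37% as higher. H4C11-OT3 had a log2 fold change of 1.38 (SE 0.35), ENSBTAG00000052382-AS1 one of 1.28 (SE 0.33), H2AC11-OT1 one of 1.27 (SE 0.30) and H2AC19-OT1 one of 1.06 (SE 0.25). On the FPKM scale the means of 12 hpi were 2.07 to 2.35 times those of 0 h for these 4. The same 4 had 3 libraries of 12 hpi above all 3 of 0 h, as had 14.1% of the tested lncRNAs. All 6 had a fold change above 0, as had 56.7% of all, but that of H4C11-OT2 turned to −1.4 when 0 h replicate 1 was omitted and to −1.45 when 0 h replicate 2 was omitted with it. The median log2 fold change of the 6 was 1.33, beside 0.11 for all tested lncRNAs. H4C11-OT1 (3.49, SE 2.92) and H4C11-OT2 (1.66, SE 2.43) did not meet the thresholds singly. Summed with each other before the fit, an alternative chosen after seeing the data, they had 1.22 (SE 0.26) and met them, and all 3 H4C11 transcripts summed had 1.29 (SE 0.28).

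These calls at 12 hpi were lost with quantile normalization. Without 0 h replicates 1 and 2, the lowest of all libraries in each of the 4, the log2 fold changes were bound to fall. They were 0.45 for H4C11-OT3, 0.41 for ENSBTAG00000052382-AS1, 0.56 for H2AC11-OT1 and 0.55 for H2AC19-OT1. Quantile normalized, they were 0.83, 0.69, 0.51 and 0.89 in the same order, and centred on the library median H2AC19-OT1 had 0.93 and fell short. Without 0 h replicate 2 alone, ENSBTAG00000052382-AS1 (0.99) and H2AC19-OT1 (0.95) fell short, and H2AC19-OT1 did so without 0 h replicate 1 (0.92) or 12 hpi replicate 1 (0.87) as well. Without 0 h replicate 3, the 4 log2 fold changes were 1.84, 1.71, 1.62 and 1.32 in the same order. At an adjusted p under 0.05 from limma, with Benjamini-Hochberg adjustment over all tested lncRNAs, 0 of the 6 and 0 of all 1948 passed in any of the 3 comparisons. At an unadjusted p under 0.05 there were 4 of the 6 at 6 hpi and 4 at 12 hpi, beside 9.80% and 14.2% of all tested lncRNAs. Without 0 h replicate 3, 3 of the 6 passed the adjusted p at 6 hpi and 4 at 12 hpi, beside 13 and 31 of all tested lncRNAs. These counts are no support for a change. In H4C11-OT3, ENSBTAG00000052382-AS1, H2AC11-OT1 and H2AC19-OT1 that library was the highest of 0 h, so leaving it out was bound to raise their fold changes.

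Between 12 and 6 hpi, 0 of the 6 met the thresholds (5.39% of all tested lncRNAs did) and 0 had an unadjusted p under 0.05 from limma (8.06% of all had). All 6 fold changes were above 0, as were 54.5% of all. They were 0.48 (SE 0.25) for H2AC19-OT1, 0.41 (SE 0.33) for ENSBTAG00000052382-AS1, 0.35 (SE 0.30) for H2AC11-OT1 and 0.34 (SE 0.35) for H4C11-OT3, differences of the size of their errors or below 2 of them. H4C11-OT1 had 1.98 (SE 2.92) and H4C11-OT2 0.69 (SE 2.43), which were −1.25 without 6 hpi replicate 1 and −0.66 without 12 hpi replicate 3. In H2AC19-OT1 and ENSBTAG00000052382-AS1 the lowest library of 12 hpi was nonetheless just above the highest of 6 hpi, 53.8 against 51.6 FPKM and 226 against 225 FPKM. Of all tested lncRNAs 8.73% had values placed so. The 3 comparisons share libraries and are not independent of each other.

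**Figure D3:**
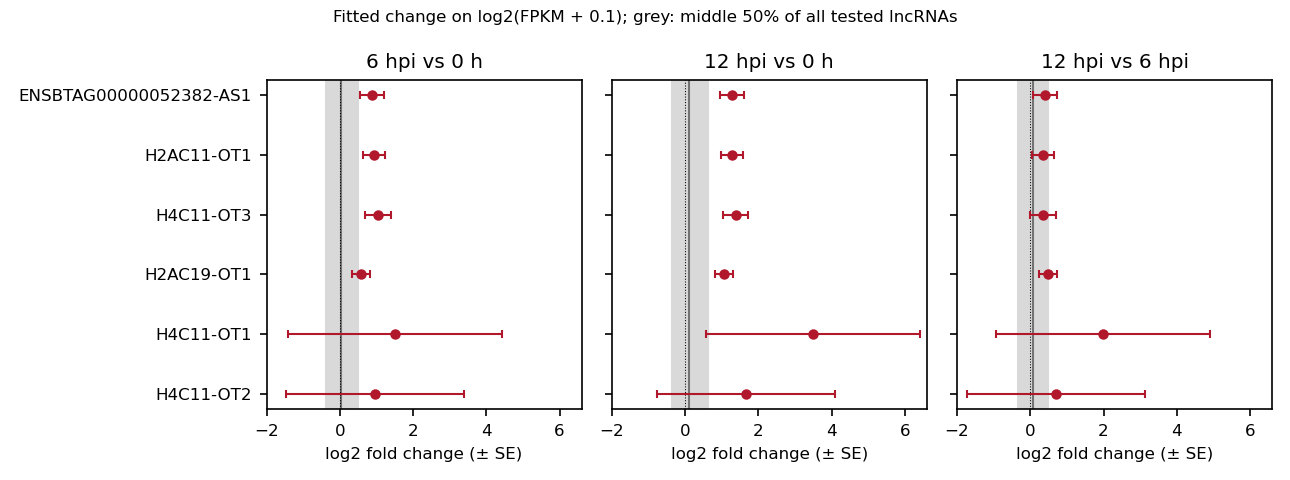
Log2 fold changes (points) with SE (bars) of the 6 lncRNAs in the 3 comparisons, fitted with limma on log2(FPKM + 0.1); the grey band holds the middle 50% of all 1948 tested lncRNAs and the grey line their median. At 12 hpi against 0 h, H4C11-OT3, ENSBTAG00000052382-AS1, H2AC11-OT1 and H2AC19-OT1 lie between 1.06 and 1.38, to the right of the band, while the errors of H4C11-OT1 and H4C11-OT2 are 2.43 or more.

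Other abundant lncRNAs were measured as a reference for the scale of the libraries. The median FPKM of all lncRNAs was 0.660 to 0.779 in a library, and the median of the 53 other lncRNAs with a mean above 10 FPKM was 17.2 to 20.7 FPKM, with 17.8, 18.5 and 18.4 in the 0 h libraries. The median log2 fold change of those 53 was 0.18 at 6 hpi and 0.08 at 12 hpi against 0 h. At 12 hpi 5 of them met the thresholds, 2 as higher and 3 as lower, and 11 had libraries wholly above 0 h. Single lncRNAs among the 53 moved by more than the histone lncRNAs. With log2 values centred on the median of these abundant lncRNAs, an alternative chosen after seeing the data, the log2 fold changes at 12 hpi were 1.28 for H4C11-OT3, 1.18 for ENSBTAG00000052382-AS1, 1.17 for H2AC11-OT1 and 0.96 for H2AC19-OT1, which then fell short of the threshold.

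H2AC11-OT1, H4C11-OT3 and ENSBTAG00000052382-AS1 kept close proportions to each other from library to library. Counting H4C11-OT1 and H4C11-OT2 as a sum, 0 h replicates 1 and 2 were the lowest libraries and 12 hpi replicates 1 and 3 the highest in 5 of 5 cases. How many of all tested lncRNAs have this order was not counted. LINC1346 and LINC316, which are not members and are named below for their similar profiles, had it too. The FPKM of H2AC11-OT1 divided by that of ENSBTAG00000052382-AS1 was 0.601 ± 0.0411 (SD, n = 9), with extremes of 0.532 and 0.664. The ratio of H4C11-OT3 to ENSBTAG00000052382-AS1 was 0.540 ± 0.0372 (SD, n = 9), between 0.467 and 0.603. Each of these lncRNAs by itself ran from its lowest to its highest library by a factor of 4.16 to 4.27. On the log2 scale the SD over libraries was 0.0994 and 0.101 for these ratios, against 0.673 to 0.759 for the levels.

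H2AC19-OT1, on chromosome 3, followed less closely. Its ratio to ENSBTAG00000052382-AS1 was 0.263 ± 0.0460 (SD, n = 9), with an SD of 0.228 on the log2 scale, and its range was narrower, 3.32-fold from the lowest to the highest library. The ratios of the summed H4C11 pair to the others had SDs of 0.259 to 0.363. Over the 10 pairs of members, with the H4C11 pair summed, the median SD of the log2 ratio was 0.244, and over the 1176 pairs of 49 other lncRNAs with a mean above 10 FPKM and no library at 0 it was 0.521, with a lowest value of 0.0851. These medians are not like for like. H4C11-OT1 and H4C11-OT2, each with libraries at 0, were kept as a sum, whereas other lncRNAs with a library at 0 were left out. No transcripts of a shared host were summed among the 49. The members were also chosen with their values in view. Pairs share libraries and members, so this is a description.

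Other lncRNAs had profiles close to those of the histone loci. Likeness was measured as the root mean square difference of log2(FPKM + 0.1) over the 9 libraries, each profile centred on its own mean. ENSBTAG00000052382-AS1 differed by 0.094 from H2AC11-OT1 and by 0.149 from LINC1346, the closest lncRNA outside the set among 1144 with at least 0.8 times its SD, whose median difference was 1.12. LINC1346, an intergenic lncRNA of chromosome 5 (97082333 to 97101634), had 1.86, 2.11 and 5.00 FPKM at 0 h, 4.28, 5.16 and 4.71 FPKM at 6 hpi, and 6.83, 5.34 and 7.29 FPKM at 12 hpi. In it, too, 0 h replicate 3 was apart from 0 h replicates 1 and 2. LINC1346 was also the closest to H2AC11-OT1 (0.171) and the next closest to H4C11-OT3 (0.169) after LINC1052 of chromosome 26 (0.166). ENSBTAG00000054344-AS1, an antisense lncRNA on the unplaced scaffold NKLS02002134.1, came next to H2AC11-OT1 (0.194) and ENSBTAG00000052382-AS1 (0.177).

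The closest to H2AC19-OT1 was LINC316 on chromosome 13 (77863301 to 77867198), at 0.176, as near as the closest member, H2AC11-OT1, at 0.18. Its FPKM was 13.2, 17.0 and 24.0 at 0 h, 22.9, 28.1 and 26.1 at 6 hpi, and 33.6, 28.6 and 32.6 at 12 hpi, all 3 libraries of 12 hpi above all 3 of 0 h. USP20-OT1, at the gene of a deubiquitinating enzyme, followed at 0.199. For H4C11-OT1 and H4C11-OT2 only 3 and 9 lncRNAs varied enough to be considered. The closest differed by 4.83 (UBL5-OT1) and 2.74 (LINC1433), with ENSBTAT00000070696 (5.80) and ENSBTAT00000073211 (3.25) next, values that are no likeness.

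**Figure D4:**
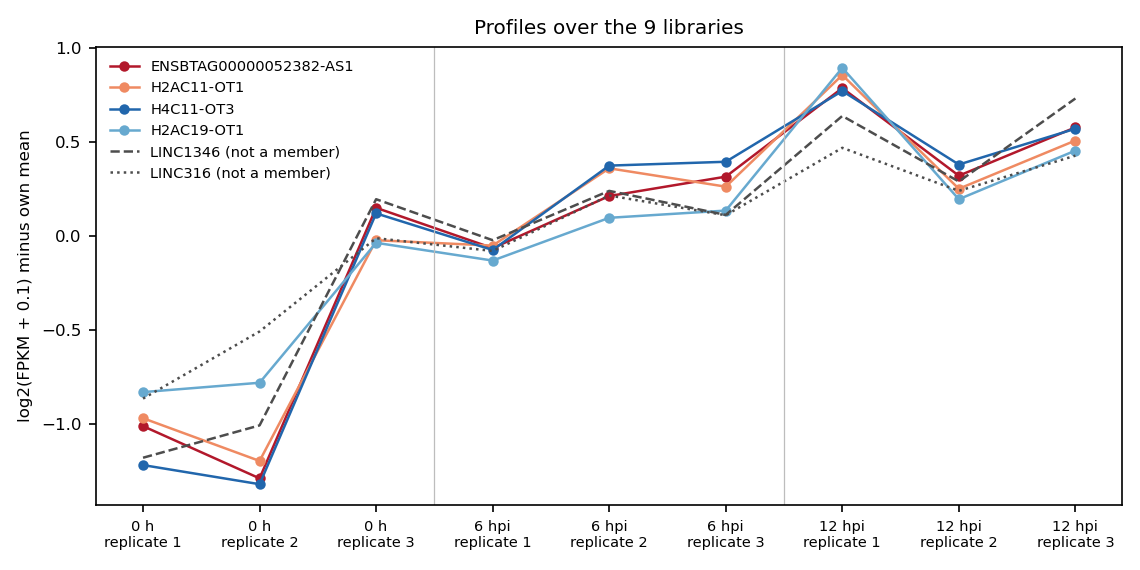
Log2(FPKM + 0.1) of H2AC11-OT1, H4C11-OT3, H2AC19-OT1 and ENSBTAG00000052382-AS1, and of LINC1346 and LINC316, each minus its own mean over the 9 libraries; lines join the values of 1 lncRNA and imply no order of replicates. The 4 lncRNAs run together, ENSBTAG00000052382-AS1 and H2AC11-OT1 with a root mean square difference of 0.094, and with a step between 0 h replicates 1 and 2 and the other 7 libraries.

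The lncRNAs next to the members were scarce. Within 100 kb of a member lie 5 further deposited lncRNAs, of which 4 were tested and 0 met the thresholds in any comparison. ENSBTAG00000039274-AS1, 1.39 kb from H4C11-OT1 and H4C11-OT2, had a mean of 1.07 FPKM and log2 fold changes of −0.40 (SE 0.36, adjusted p = 0.72 from limma) at 6 hpi and 0.48 (SE 0.36, adjusted p = 0.563) at 12 hpi against 0 h. It had 1.01, 0.777 and 1.2 FPKM at 0 h, so that 0 h replicate 3 did not stand apart there as it did in the members. Beside H2AC19-OT1, 4.68 to 9.10 kb away, are 4 transcripts antisense to ENSBTAG00000006050, with means of 0.225 to 0.711 FPKM. ENSBTAG00000006050-AS4 had the largest log2 fold change of the 3 tested, 1.55 at 12 hpi (SE 0.72, adjusted p = 0.371 from limma). ENSBTAG00000006050-AS3 had 0.93 (SE 1.3) and ENSBTAG00000006050-AS2 0.54 (SE 0.72). ENSBTAG00000006050-AS1 did not pass the filter.

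On chromosome 23, only 2 other deposited lncRNAs lie between the first and the last member, ENSBTAT00000068018 and ENSBTAG00000011498-AS1. With means of 1.03 and 0.611 FPKM they were far below the histone lncRNAs on both sides. Their log2 fold changes at 12 hpi against 0 h were −0.45 (SE 0.36, adjusted p = 0.587 from limma) and 0.69 (SE 0.51, adjusted p = 0.56). LINC1152, 188 kb from H2AC19-OT1 and named here after its values were seen, was the 1 lncRNA outside the set within 250 kb to meet the thresholds. It had 0.883, 0.838 and 1.17 FPKM at 0 h, 1.46, 2.68 and 2.5 FPKM at 6 hpi, and 2.45, 1.99 and 3.06 FPKM at 12 hpi. Its log2 fold changes were 1.09 (SE 0.30, adjusted p = 0.337 from limma) at 6 hpi and 1.28 (SE 0.30, adjusted p = 0.188) at 12 hpi, and all 6 treated libraries were above the 3 of untreated cells.

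LncRNAs whose host symbol is among other genes of histone supply were few and low. The antisense lncRNAs within 100 kb of a member carry no host symbol, and whether they lie at histone genes was not checked. MACROH2A1-OT1, at the gene of the histone variant macroH2A, which is expressed outside S phase too, was the 1 other lncRNA with a histone gene as host symbol. It had 2.42, 2.38 and 1.65 FPKM at 0 h, 2.22, 1.09 and 0.904 FPKM at 6 hpi, and 0.782, 1.72 and 0.947 FPKM at 12 hpi. Its log2 fold change at 12 hpi was −0.90 and its adjusted p 0.353 from limma, opposite in sign to the members and short of the fold change threshold. Among 24 genes of histone transcription and mRNA processing, NPAT, the coactivator of histone gene transcription, and SNRPD3, a Sm core protein of small nuclear RNPs, had 4 lncRNAs, of which 3 were tested and 0 met the thresholds against 0 h.

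NPAT-OT1 had 1.58, 2.34 and 1.28 FPKM at 0 h and 1.68, 1.48 and 1.41 FPKM at 12 hpi, overlapping ranges. SNRPD3-OT3 met the thresholds as higher between 12 and 6 hpi, with a log2 fold change of 2.18 (SE 0.92, adjusted p = 0.605 from limma). It was listed at 0 in 2 of 3 libraries of 6 hpi, and the ranges overlapped. Of 25 histone chaperone genes, UBN2, which codes for a subunit of the HIRA complex, had 1 lncRNA. It did not meet the thresholds.

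CDK1-OT1, at the kinase gene that drives entry into mitosis, was the 1 lncRNA of 33 genes of G2 and mitosis. IRAK3-OT1, at the gene of an inhibitor of TLR signalling, was the 1 of 40 genes of the LPS and NF-kB response. Neither met the thresholds. Their log2 fold changes at 6 hpi were −1.12 and −1.06 (adjusted p = 0.708 and 0.542 from limma). Among the 5 lncRNAs of RUNX1, 1 was higher (RUNX1-OT3, 3.06) and 1 lower (RUNX1-OT2, −2.58) at 6 hpi, 1 was higher at 12 hpi (RUNX1-OT4, 1.07), and between 12 and 6 hpi RUNX1-OT2 was higher (3.8) and RUNX1-OT3 lower (−4.44). RUNX1-OT1 and RUNX1-OT5 met the thresholds in no comparison. The mRNAs of the listed genes are not among the values analysed here, so whether the share of cells in S phase differed between libraries could not be measured.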

How the data were processed

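Per the study's methods, RNA of MAC-T cells was depleted of ribosomal RNA, stranded libraries were sequenced as paired ends, reads were mapped with HISAT2 to the Ensembl bovine genome, transcripts were merged with Cuffmerge, lncRNAs were selected by exon number, length, FPKM and lack of coding potential, and StringTie quantified them, with values normalized to FPKM. The submitters' processing notes name HISAT2, Cuffdiff 2.1.1, DESeq 1.10.1 and ARS-UCD1.2. The values deposited by the authors are FPKM, fragments per mapped fragments and transcript length; how multi-mapped fragments were shared and how many fragments lie behind a value is not stated in the sources used here, and no counting interval can be given. The table that holds all 9 libraries was used, and the 8 tables of single libraries hold the same values. CircRNA tables were not used, because their rows carry no coordinates or host genes.

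The test was limma 3.58.1 in R 4.3.3 on log2(FPKM + 0.1), fitted to the 9 libraries together with the variance trended on the mean, for lncRNAs that passed 0.5 FPKM in 3 or more libraries, with Benjamini-Hochberg adjustment over all tested lncRNAs within a comparison. Fold changes are on that scale, which understates changes of low values. The thresholds, those of the study, are a log2 fold change beyond 1 in size and a two-sided p under 0.05 before adjustment. The fit was tested on simulated data. Members and gene lists were chosen with earlier results of these data known. Named are the members, lncRNAs within 100 kb of one, lncRNAs at other histone genes, for each member the 2 non-members with the most similar profile among those with at least 0.8 times its SD, and lncRNAs of the other lists at the thresholds. A list counts lncRNAs by the symbol of the host gene. The antisense and intergenic lncRNAs named here carry a locus number in place of that symbol, so a list could not count them. Of the listed lncRNAs short of the thresholds, NPAT-OT1, CDK1-OT1, IRAK3-OT1, RUNX1-OT1 and RUNX1-OT5 are named as well. The list of S phase genes is not reported here. Alternatives were pseudocounts of 0.05, 0.5 and 1, other filters, scalings and fits, a block for the replicate number, omission of single libraries or of 0 h replicates 1 and 2 together, and FPKM summed per host gene.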

Additional observations from a re-analysis of the deposited data

How the results depend on the processing

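Of the 6 lncRNAs, the number that met the thresholds at 6 hpi against 0 h (1) was 0 with values centred on the library median and with quantile normalization. It was 3 with a robust fit and ran from 0 to 3 with 1 library left out. At 12 hpi against 0 h (4) it was 0 with quantile normalization and 2 to 4 with 1 library left out. Leaving out 0 h replicates 1 and 2 together was bound to lower the fold changes of the lncRNAs in which they were lowest, and those fold changes are given above. Quantile normalization gives every library the same values at each rank, and its part in the lost calls was not tested. At the adjusted p, the robust fit counted 2 and 4 of them against 0 h, beside 214 and 324 of all tested lncRNAs, and leaving out 1 library gave 0 to 3 and 0 to 4. Between 12 and 6 hpi both counts were 0 under every alternative run.

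For all tested lncRNAs, the counts of 118, 187 and 105 in the 3 comparisons were 50, 89 and 48 with a pseudocount of 0.5, 18, 32 and 17 with 1, and 228, 294 and 193 with the robust fit. Without 0 h replicates 1 and 2 together, those against 0 h were 55 and 87. At 6 hpi leaving out 1 library gave 78 to 171. The share of calls that were higher at 12 hpi against 0 h, 66.3%, was 48.6% with centred values, and the median of all tested lncRNAs moved from 0.11 to −0.02.

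On the gene lists, the 2 lncRNAs called at 6 hpi were 1 with a pseudocount of 1 and 0 without 0 h replicates 1 and 2 together, and 2 to 4 with 1 library left out. The 1 at 12 hpi was 2 with the robust fit or only the 6 libraries compared, 3 without 0 h replicates 1 and 2 together, and 0 to 2 with 1 library left out. Of the lncRNAs within 100 kb, 1 was called by the robust fit at 12 hpi and 1 between 12 and 6 hpi, 0 to 1 in each comparison with 1 library left out, and within 250 kb 1 at 6 hpi and 1 at 12 hpi. The causes of these moves were not tested. With the replicate number as a block, 1 and 4 of the 6 lncRNAs were called against 0 h, as without it, and 115, 181 and 103 of all. Deviations of libraries with the same number correlated between −0.0754 and 0.0728, and those of libraries with other numbers between −0.0534 and 0.0856. No pairing by number is visible in these values, and whether libraries of the same number share a culture or preparation cannot be read from them. The shares of the H4C11 transcripts moved by less than their SD under each alternative run, as omission of 1 of 3 libraries cannot move a mean further. Their moves were still large. That of H4C11-OT1 at 0 h, 16.9% (SD 25.2), was 2.43% without 0 h replicate 1 and 25.4% without 0 h replicate 2.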
